A study of Mus musculus with 29 samples.

Results

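Genes of the Notch and TGF-beta pathways that have been tied to the identity of Kupffer cells (KCs) were followed across splenic and hepatic macrophages of wild-type and Rnaset2-/- mice. The group was chosen by symbol, by a rule that used no measured value but was set with earlier results of these data known, and named 10 genes: the receptors Notch1 and Notch2, the nuclear partner Rbpj, the target Hes1, the receptors Tgfbr1, Tgfbr2 and Acvrl1, the target Id1, and the inhibitors Smad6 and Smad7. A row was found for 9 of them among 23930 genes, and Rbpj was not analysed here.

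KCs are the resident macrophages of the liver and lie in the sinusoids beside endothelial, stellate and parenchymal cells. In Notch signaling, a ligand such as Dll4 on a neighbouring cell triggers the release of the receptor's intracellular part, which joins RBPJ on DNA and switches on Hes1 and Nrarp. TGF-beta binds TGFBR2 and TGFBR1 and acts through SMAD2 and SMAD3, whereas BMP9 and BMP10 bind ALK1, the product of Acvrl1, and act through SMAD1 and SMAD5 to induce Id genes and the inhibitors Smad6 and Smad7. Ligands of both kinds made by cells of the sinusoid are known to help monocytes that enter the liver take on KC identity.

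Mice lacking both Rnaset2a and Rnaset2b, described as Rnaset2-/-, were compared with wild-type mice, all on the C57BL/6 background; their ages were not given in the sources used here. Macrophages were sorted by flow cytometry into Ly6Chi cells (CD11b+, without Ly6G, SiglecF and NK1.1) and Ly6Clow cells (CD11b+ with the Fc receptor CD16.2). KCs were sorted, by the labels, as F4/80+ Tim4+ cells with intermediate CD11b and low PDCA-1; the methods of the study give F4/80+ cells with low CD11b and do not name Tim4 for this sort. The 29 libraries comprised, in the spleen, 3 wild-type Ly6Chi, 3 wild-type Ly6Clow, 3 Rnaset2-/- Ly6Chi and 4 Rnaset2-/- Ly6Clow libraries, and, in the liver, 4 wild-type KC libraries and 3 each of the Ly6Chi and Ly6Clow subsets of either genotype. Rnaset2-/- KCs were not analysed here. Splenic cells were depleted of T, B, NK, neutrophil and erythroid cells on a magnetic column before the sort. Nothing in the labels says that replicates came from separate animals, so p-values measure the spread between libraries. Rnaset2a and Rnaset2b were not analysed here either, so the genotype labels rest on the labels alone.

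Levels are in RPM, the reads of a gene on a targeted amplicon panel scaled to a common total per library. They cannot be compared between genes. For 1 gene, comparison between libraries is limited, since levels lack the scaling factors that were applied before log2 fold changes were taken. Leaving these factors out moved the median of all genes by 0.62 in KCs against wild-type hepatic Ly6Chi macrophages. The shift was 0.53 in KCs against wild-type hepatic Ly6Clow macrophages. Libraries held 11175843 to 21167602 reads, so that 3 reads corresponded to 0.142 to 0.268 RPM. A difference is given as a log2 fold change of scaled RPM + 1 with its standard error (SE), and a gene was called when it changed over 1.5-fold with an adjusted p below 0.05 in limma over all tested genes. All 9 genes passed the filter on low values in every comparison except Smad6 between wild-type splenic subsets. In sorted bulk samples, fewer cells of a type and less RNA per cell cannot be told apart.

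The sorted populations matched their names in part. Of 8 KC marker genes, of which Cdh5 is also an endothelial gene, all 8 exceeded 1 RPM on average in KCs, with a sum of 6868 to 19647 RPM against 13.2 to 18.3 RPM in wild-type hepatic Ly6Chi macrophages. KC libraries also held 3661 to 9059 RPM of 12 genes of liver sinusoidal endothelial cells, 1285 to 4343 RPM of 6 hepatocyte genes and 203 to 523 RPM of 7 stellate cell genes. KC replicate 3 stood apart, with Clec4f, a defining KC gene, at 1674 RPM against 4819 to 5471 RPM in the other KC libraries, and with the most endothelial and hepatocyte RNA. In the Rnaset2-/- liver the endothelial sum ranged from 523 to 3474 RPM in Ly6Chi and from 1159 to 4562 RPM in Ly6Clow libraries, against 93.5 to 136 and 288 to 532 RPM in wild-type libraries. All 12 endothelial genes were higher in every Rnaset2-/- library of the Ly6Chi subset, but only 2 of 12 were in the Ly6Clow subset. The sum of 25 immediate early genes, which respond to tissue dissociation, was 35225 to 38400 RPM in wild-type and 4843 to 10111 RPM in Rnaset2-/- hepatic Ly6Chi macrophages, 30257 to 43283 and 1934 to 2871 RPM in the Ly6Clow subset, and 3136 to 4399 RPM in KCs. All 6 Rnaset2-/- liver libraries held Xist at 0 to 0.154 RPM and the Y-linked gene Ddx3y at 83.4 to 156 RPM, whereas the 6 wild-type Ly6Chi and Ly6Clow liver libraries held Xist at 321 to 539 RPM, and replicates 2 and 3 of both subsets also held Ddx3y at 15.4 to 29.7 RPM. In the spleen, Rnaset2-/- Ly6Clow replicate 2 alone was like the Rnaset2-/- liver libraries, with Xist at 0.781 and Ddx3y at 163 RPM. In the liver, sex and genotype therefore cannot be told apart. How far endothelial RNA, immediate early genes or KC replicate 3 shaped the values below was not tested.

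**Figure D1:**
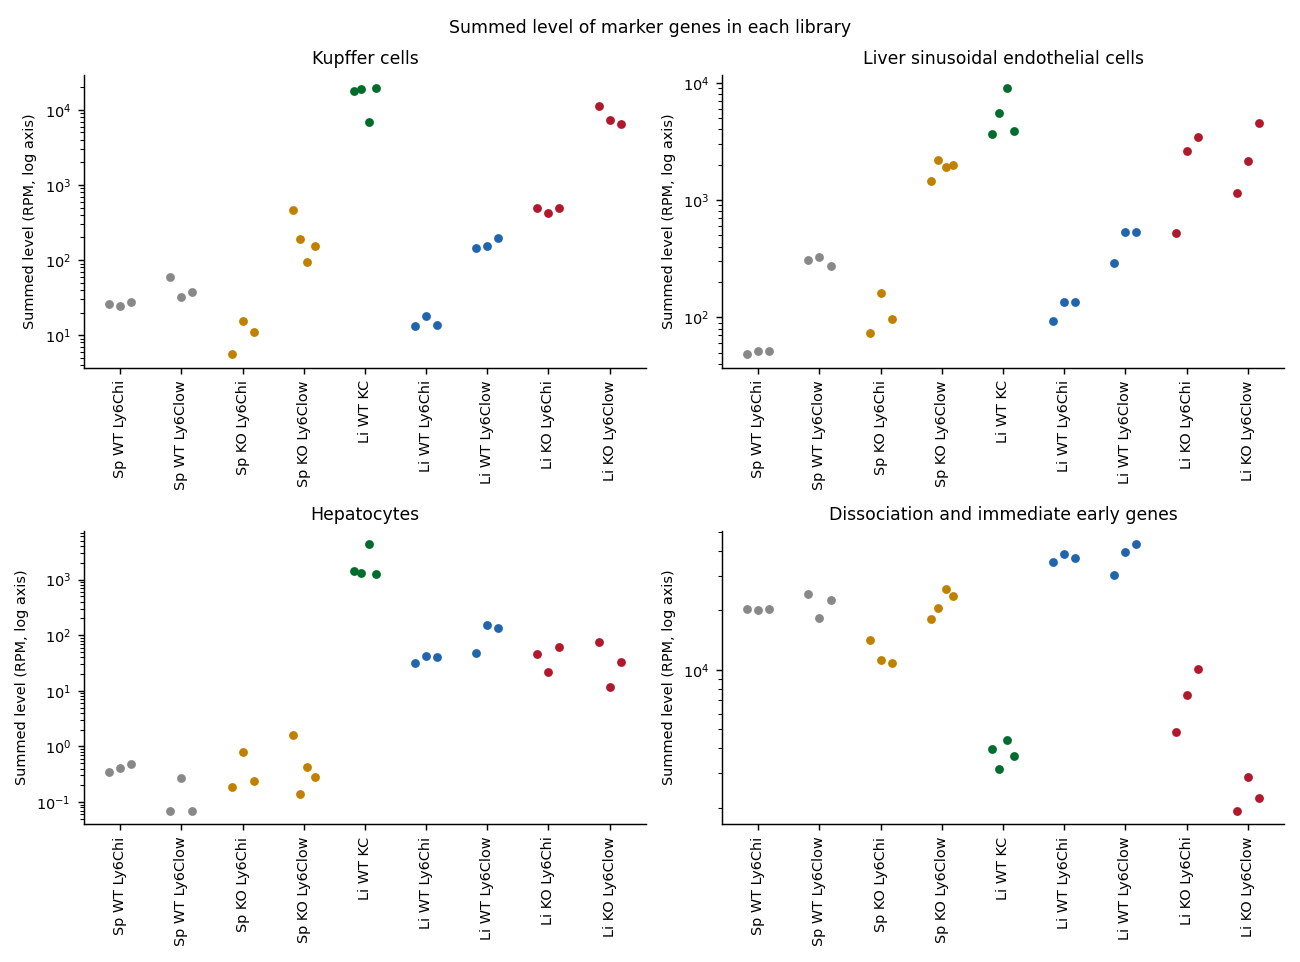
Summed level of 4 marker lists in each of the 29 libraries (RPM, log axis) by group; each point is 1 library, Sp is spleen, Li is liver, and KO is Rnaset2-/-. Endothelial sums were 3661 to 9059 RPM in KCs and 93.5 to 136 RPM in wild-type hepatic Ly6Chi macrophages, and immediate early sums were 30257 to 43283 RPM in wild-type and 1934 to 2871 RPM in Rnaset2-/- hepatic Ly6Clow macrophages.

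Notch1, a receptor of the pathway (chromosome 2, 26457902 to 26503822; all gene positions are from RefSeq on GRCm38.p6, the mm10 build), was highest in wild-type liver. Its level was 46.2, 49.9, 80.3 and 43.9 RPM in KCs, 48.6, 41.2 and 72.7 RPM in wild-type hepatic Ly6Chi macrophages and 15.1, 34.5 and 27.7 RPM in the Ly6Clow subset. In the Rnaset2-/- liver it was 18.6, 17.2 and 27.2 RPM in Ly6Chi and 8.62, 3.66 and 6.89 RPM in Ly6Clow macrophages. Within each subset, the Rnaset2-/- and wild-type liver libraries did not overlap. In the spleen Notch1 was 17.5, 18.8 and 20.5 RPM in wild-type Ly6Chi, 13.4, 13.7 and 10.02 RPM in Rnaset2-/- Ly6Chi, 6.64, 15.1 and 9.06 RPM in wild-type Ly6Clow and 10.3, 7.17, 6.31 and 7.82 RPM in Rnaset2-/- Ly6Clow libraries. Only the splenic Ly6Chi pair was free of overlap.

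Notch2 (chromosome 3, 98013538 to 98150367), the other Notch receptor of the group, was lowest in KCs and highest in splenic Ly6Clow macrophages. It was 805, 797 and 791 RPM in wild-type and 640.2, 737, 757 and 947 RPM in Rnaset2-/- splenic Ly6Clow macrophages, and 615, 587 and 563 RPM in wild-type and 564, 449 and 432 RPM in Rnaset2-/- splenic Ly6Chi macrophages. In the liver it was 225, 183, 172 and 205 RPM in KCs, below every other library. Wild-type hepatic macrophages held 460.4, 438 and 492 RPM in Ly6Chi and 470.3, 496 and 399 RPM in Ly6Clow libraries. Rnaset2-/- Ly6Chi macrophages held 335, 676 and 616 RPM and overlapped the wild type, whereas Rnaset2-/- Ly6Clow macrophages, at 331, 334 and 248 RPM, were all below it.

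Hes1, which encodes a repressor induced by Notch (chromosome 16, 30065357 to 30067796), was lower in every Rnaset2-/- than in every wild-type hepatic library of the same subset. It was 258, 393 and 364 RPM in wild-type against 31.1, 64.2 and 39.2 RPM in Rnaset2-/- hepatic Ly6Clow macrophages, and 179.7, 104 and 179 RPM against 6.60, 56.6 and 51.5 RPM in the Ly6Chi subset. KCs lay between, at 81.3, 96.8, 83.3 and 91.2 RPM. In the spleen Hes1 was 158, 153 and 155 RPM in wild-type and 90.7, 84.7, 118 and 132 RPM in Rnaset2-/- Ly6Clow macrophages, which did not overlap. Ly6Chi libraries were alike, at 39.4, 42.2 and 34.7 RPM in the wild type and 47.1, 42.4 and 29.7 RPM in Rnaset2-/- mice.

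Tgfbr1, the type I TGF-beta receptor (chromosome 4, 47353222 to 47414926), had overlapping libraries at all 8 steps of its order across the 9 groups. It was 108, 96.1 and 97.1 RPM in wild-type and 44.1, 143 and 72.7 RPM in Rnaset2-/- hepatic Ly6Clow macrophages, 58.7, 49.6 and 67.5 RPM and 13.5, 32.9 and 38.8 RPM in the respective Ly6Chi subsets, and 41.9, 51.6, 34.8 and 30.7 RPM in KCs. In the spleen it was 70.1, 121 and 96.9 RPM in wild-type and 50.2, 55.6, 71.4 and 42.3 RPM in Rnaset2-/- Ly6Clow macrophages, and 28.1, 25.2 and 32.6 RPM and 20.6, 22.2 and 14.0 RPM in the Ly6Chi subsets. The Rnaset2-/- hepatic Ly6Clow libraries spread the most.

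Tgfbr2, the type II receptor that binds TGF-beta (chromosome 9, 116087695 to 116175363), was highest in Rnaset2-/- hepatic Ly6Clow macrophages, at 223, 318 and 355 RPM, above all other libraries. Wild-type hepatic Ly6Clow macrophages held 91.1, 84.9 and 79.4 RPM and KCs 140.0, 139, 171 and 149 RPM. Hepatic Ly6Chi macrophages held 45.8, 57.7 and 54.1 RPM in the wild type and 73.5, 135 and 122 RPM in Rnaset2-/- mice, without overlap. In the spleen Tgfbr2 was 162, 129 and 140.0 RPM in wild-type and 177, 152, 151 and 159 RPM in Rnaset2-/- Ly6Clow macrophages, and 84.6, 79.8 and 77.2 RPM and 65.0, 58.9 and 57.8 RPM in the Ly6Chi subsets.

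Acvrl1, which encodes ALK1, the receptor for BMP9 and BMP10 (chromosome 15, 101128522 to 101145336), was also highest in Rnaset2-/- hepatic Ly6Clow macrophages, at 136, 129 and 73.9 RPM against 19.9, 21.4 and 21.6 RPM in the wild type. KCs split, with 87.6 and 88.3 RPM in replicates 1 and 2 and 35.1 and 51.3 RPM in replicates 3 and 4. Hepatic Ly6Chi macrophages held 25.0, 26.9 and 24.2 RPM in the wild type and 52.3, 34.0 and 40.8 RPM in Rnaset2-/- mice. In the spleen Acvrl1 was 26.3, 27.6 and 30.5 RPM in wild-type and 14.2, 13.9 and 14.1 RPM in Rnaset2-/- Ly6Chi macrophages, and 7.55, 8.92 and 6.74 RPM and 24.4, 15.3, 9.65 and 8.95 RPM in the Ly6Clow subsets. All Rnaset2-/- Ly6Clow libraries of the spleen exceeded the wild type, the nearest by less than the spread within either group.

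Id1 (chromosome 2, 152736251 to 152737410) encodes an inhibitor of basic helix-loop-helix factors and is a target of SMAD1 and SMAD5. By genotype in the liver, it did not follow Acvrl1. Both genes went the same way in splenic Ly6Chi macrophages by genotype, in wild-type Ly6Clow macrophages by organ and between wild-type splenic subsets. Id1 was highest in wild-type hepatic Ly6Chi macrophages, at 103, 96.6 and 149 RPM, against 6.06, 20.5 and 30.1 RPM in Rnaset2-/- mice. The hepatic Ly6Clow subset held 38.9, 93.4 and 78.7 RPM in the wild type and 13.8, 22.3 and 29.9 RPM in Rnaset2-/- mice, and KCs held 61.3, 49.1, 52.9 and 38.7 RPM. In the spleen it was 85.7, 82.7 and 82.7 RPM in wild-type and 45.8, 47.6 and 45.0 RPM in Rnaset2-/- Ly6Chi macrophages, and 20.3, 25.0 and 20.7 RPM and 17.3, 11.0, 12.4 and 9.65 RPM in the Ly6Clow subsets. In all 4 pairs, every Rnaset2-/- library was below every wild-type library.

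Smad6, an inhibitor that mainly restrains BMP receptors, was lowest in the spleen. Its 13 splenic libraries ranged from 0.492 to 1.92 RPM. It was 22.6, 23.4, 25.3 and 21.0 RPM in KCs, 13.2, 29.2 and 25.1 RPM in Rnaset2-/- hepatic Ly6Clow macrophages and 9.37, 8.65 and 18.8 RPM in the Ly6Chi subset. Wild-type hepatic macrophages held 2.62, 1.42 and 3.04 RPM in Ly6Chi and 2.48, 4.01 and 3.22 RPM in Ly6Clow libraries, below all KC and Rnaset2-/- liver libraries. The gene (chromosome 9, 63953076 to 64022085) had the widest range of group means, 26.3-fold from the highest to the lowest, and its promoter is shown for that reason. The stretch is GRCm38.p6 chr9:64022050-64022309 on the minus strand, from RefSeq, with 250 bases before and 10 after the start site of the promoter entry, which lies inside the gene interval given above and is not its outer end; capitals mark the palindrome GTCTAGAC, a SMAD-binding element, which spans 4 bases on either side of that start.
Smad6 promoter: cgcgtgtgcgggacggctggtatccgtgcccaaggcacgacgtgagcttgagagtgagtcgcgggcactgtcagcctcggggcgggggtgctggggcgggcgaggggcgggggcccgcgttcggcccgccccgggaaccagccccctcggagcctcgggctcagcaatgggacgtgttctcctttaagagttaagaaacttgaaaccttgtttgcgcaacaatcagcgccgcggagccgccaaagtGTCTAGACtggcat
GTCTAGAC, searched on both strands, occurred in 70 of 32851 RefSeq promoters (0.213%). Of the 5 members measured that had a promoter entry (Notch1, Notch2, Tgfbr1, Tgfbr2 and Smad6), only the Smad6 entry held it. The RBPJ core TGGGAA, present in 25.6% of promoters on either strand, was in none of those entries, and GGCGCC, a GC-rich element bound by SMAD1 and SMAD5 and present in 11.9%, was in 1 entry of Tgfbr1. These matches describe letters in a window, not binding.

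Smad7, an inhibitor of TGF-beta and BMP receptors (chromosome 18, 75367365 to 75395935), was highest on average in KCs, at 83.5, 92.9, 127 and 76.9 RPM. The KC libraries overlapped those of Rnaset2-/- hepatic Ly6Clow macrophages. After scaling, the log2 fold change of the latter against KCs was -0.28 (95% CI -1.04 to 0.48) and did not pass the test. Rnaset2-/- hepatic macrophages held 22.4, 40.2 and 70.3 RPM in Ly6Chi and 28.1, 77.0 and 68.6 RPM in Ly6Clow libraries, against 18.1, 22.6 and 36.2 RPM and 28.97, 49.1 and 37.5 RPM in the wild type. In each hepatic subset the genotypes overlapped. Splenic Ly6Chi macrophages held 31.9, 34.5 and 34.0 RPM in the wild type and 16.7, 14.5 and 19.6 RPM in Rnaset2-/- mice, and the Ly6Clow subsets held 15.4, 18.9 and 17.98 RPM and 21.8, 22.9, 17.5 and 13.9 RPM.

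**Figure D2:**
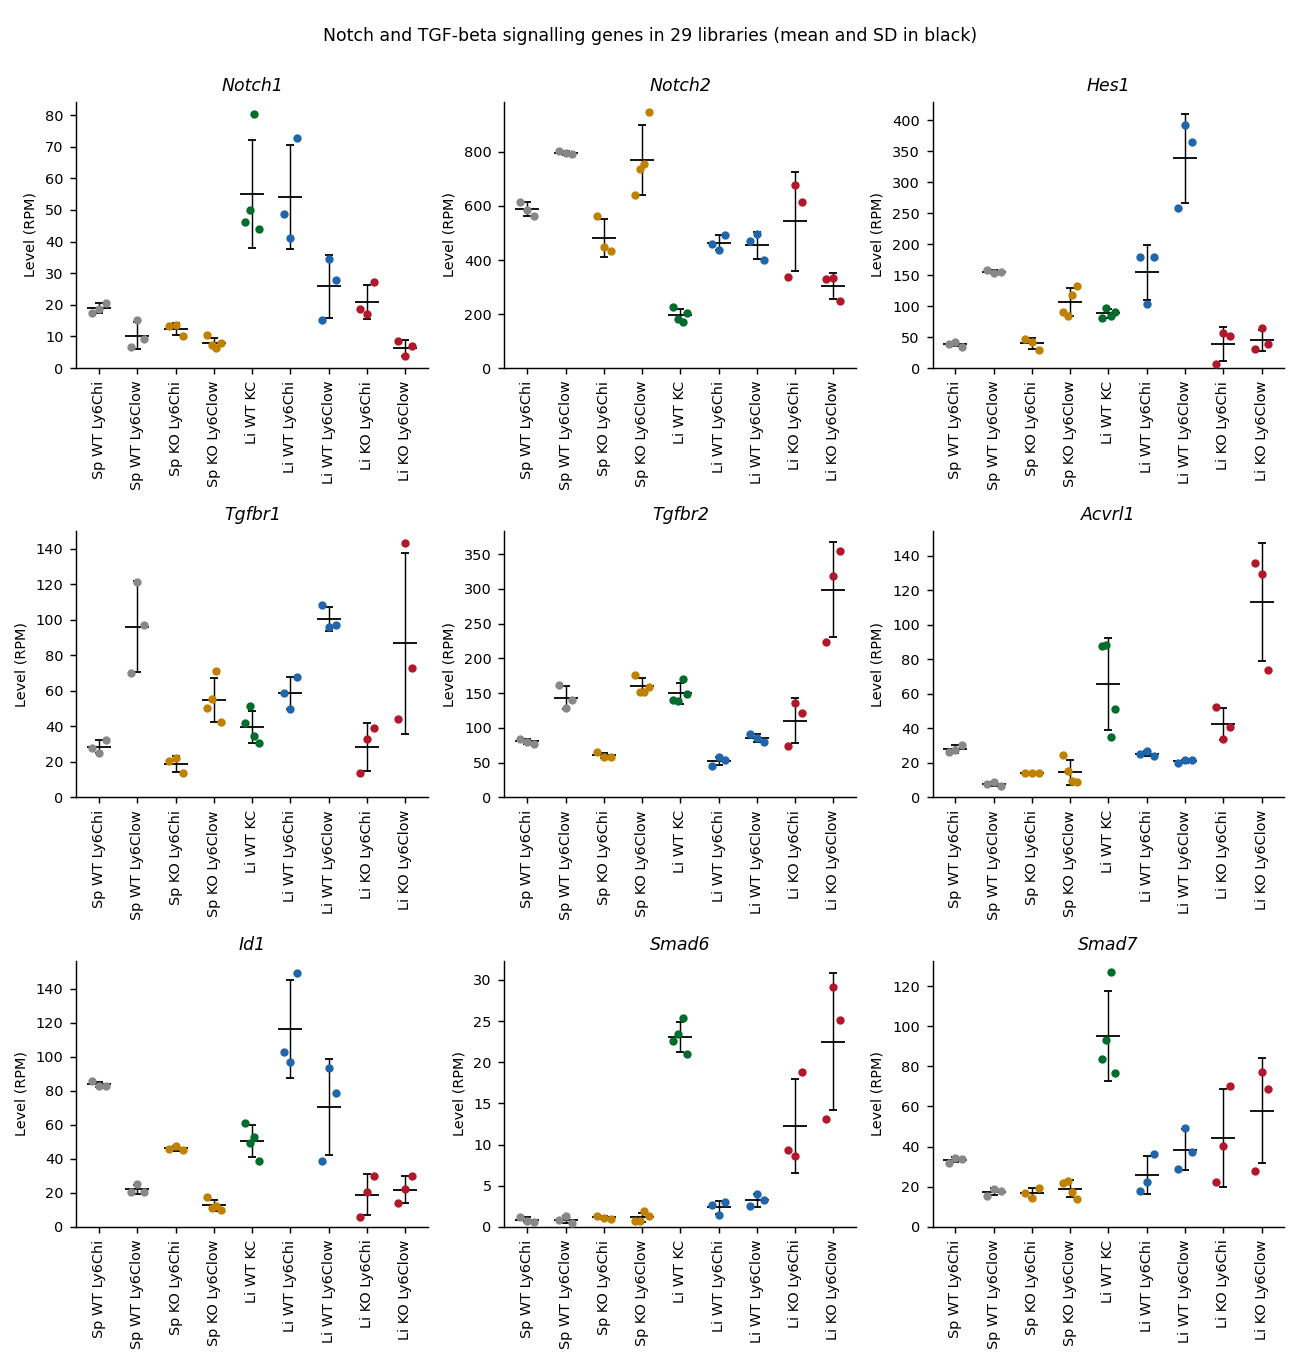
Level of the 9 genes (RPM without scaling factors, linear axes from 0) in 29 libraries of 9 groups. Each point is 1 library, the black bar the mean and the whisker the SD. Hes1 stood at 258 to 393 RPM in wild-type and 31.1 to 64.2 RPM in Rnaset2-/- hepatic Ly6Clow macrophages, and Smad6 at 21.0 to 25.3 RPM in KCs and at most 1.92 RPM in the spleen.

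To describe how hepatic Ly6Clow macrophages differed by genotype, Rnaset2-/- and wild-type libraries were compared. Sex and genotype cannot be told apart in this comparison. The receptors Acvrl1 and Tgfbr2 and the inhibitor Smad6 rose, and the Notch receptors and both target genes fell. The log2 fold change was 2.29 (SE 0.234, adjusted p = 0.000196) for Acvrl1, 2.38 (SE 0.322, adjusted p = 0.00075) for Smad6 and 1.73 (SE 0.204, adjusted p = 0.000378) for Tgfbr2. It was -2.97 (SE 0.283, adjusted p = 0.000143) for Hes1, -1.88 (SE 0.387, adjusted p = 0.0053) for Notch1, -1.65 (SE 0.392, adjusted p = 0.0101) for Id1 and -0.63 (SE 0.177, adjusted p = 0.0209) for Notch2. Thus 3 of 9 genes were called higher and 4 lower, where 20.2% of all tested genes were called higher and 22.5% lower. Tgfbr1 (-0.41, 95% CI -1.23 to 0.41) and Smad7 (0.44, -0.44 to 1.32) did not pass the test. Notch2 lost its call when wild-type replicate 1, wild-type replicate 2 or Rnaset2-/- replicate 3 was left out (-0.50 to -0.63), and without wild-type replicates 2 and 3 together 4 genes were called, all but Notch1 (-1.19), Notch2 (-0.64) and Id1 (-0.86). KC marker genes summed to 6555 to 11396 RPM in the Rnaset2-/- and 143 to 196 RPM in the wild-type libraries, and all 25 immediate early genes were lower in every Rnaset2-/- library. T cell genes summed to 20.2 to 54.9 RPM in Rnaset2-/- against 0.61 to 0.805 RPM in wild-type libraries, B cell genes to 91.5 to 345 against 25.4 to 29.2 RPM, and erythroid genes to 57.4 to 155 against 1.08 to 5.84 RPM. The part of these lists in the result was not tested.

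Among 29 other Notch pathway genes tested in this subset, 7 rose and 5 fell, with a median log2 fold change of 0.06 against 0.01 over all genes. Nrarp, a feedback inhibitor induced by Notch, fell from 60.7 to 4.79 RPM (-3.59, SE 0.386), Jag1, a ligand, fell from 40.2 to 3.23 RPM (-3.41, SE 0.333), and Psen2, a subunit of gamma-secretase, rose from 55.0 to 500.0 RPM (3.10, SE 0.192). Of 34 other TGF-beta pathway genes, 3 rose and 13 fell (median -0.30). Of all tested genes, 20.2% were called higher and 22.5% lower. In each comparison, the shares given with the members are also those to set beside the pathway counts. Gdf15, a distant member of the ligand family, fell from 141 to 2.39 RPM (-5.47, SE 0.561), and Ldlrad4, an inhibitor of SMAD2 and SMAD3 activation, fell from 18.02 to 1.90 RPM (-2.80, SE 0.297). Smad1, which carries BMP signals, rose from 80.5 to 334 RPM (2.004, SE 0.214).

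In hepatic Ly6Chi macrophages, 2 of 9 genes were called higher and 4 lower in Rnaset2-/- mice, where 15.7% of all genes were called higher and 14.9% lower. Smad6 (1.68, SE 0.343, adjusted p = 0.00992) and Tgfbr2 (0.70, SE 0.214, adjusted p = 0.04) rose. Id1 (-3.09, SE 0.458, adjusted p = 0.00291), Hes1 (-2.72, SE 0.675, adjusted p = 0.0198), Notch1 (-1.62, SE 0.272, adjusted p = 0.00463) and Tgfbr1 (-1.45, SE 0.328, adjusted p = 0.0144) fell. Acvrl1 (0.39, 95% CI -0.15 to 0.93), Smad7 (0.37, -0.52 to 1.26) and Notch2 (-0.15, -0.71 to 0.41) did not pass the test. Rnaset2-/- replicate 1 was the lowest of its group for Notch2, Hes1, Id1, Tgfbr1, Tgfbr2 and Smad7, the highest for Acvrl1 and between the others for Notch1 and Smad6, and held the least endothelial RNA, at 523 RPM against 2618 and 3474 RPM; without it Hes1 was -1.82 and still called. Without wild-type replicate 1 or 3, 3 genes were called: Hes1 (-2.59 and -2.58), Tgfbr1 (-1.44 and -1.33) and Tgfbr2 (0.61 and 0.74) were lost, and Tgfbr2 was lost also when wild-type replicate 2, Rnaset2-/- replicate 2 or Rnaset2-/- replicate 3 was left out. Without wild-type replicates 2 and 3 together, which left 1 wild-type library, no gene was called, with log2 fold changes of -3.02 for Hes1, -2.98 for Id1, -1.55 for Notch1, -1.497 for Tgfbr1, 0.85 for Tgfbr2 and 1.51 for Smad6. Without scaling factors the median of all genes moved by 0.29 and calls in the higher direction went from 51.2% to 74.6% of all calls; Tgfbr1 then lost its call (-1.13, adjusted p = 0.0507) and Acvrl1 gained one, so that 3 genes were higher and 3 lower.

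Of 30 Notch pathway genes tested, 7 rose and 2 fell (median -0.02 against 0.01 over all genes). Dll4, the Notch ligand of endothelial cells, was 31.3 RPM on average in Rnaset2-/- and 1.17 RPM in wild-type macrophages (3.32, SE 0.563), Notch4, an endothelial Notch receptor, 14.3 and 0.534 RPM (2.92, SE 0.468), and Jag1 37.0 and 13.03 RPM (1.13, SE 0.225). Of 34 TGF-beta pathway genes, 8 rose and 11 fell (median -0.52). Gdf15 fell from 164 to 13.2 RPM (-3.77, SE 0.531), Bmp6, a ligand, rose from 1.31 to 34.2 RPM (3.38, SE 0.599) and Eng, the endothelial co-receptor of ALK1, from 45.2 to 509 RPM (2.99, SE 0.357). All 12 endothelial and all 8 KC marker genes were higher in every Rnaset2-/- library of this subset, with KC sums of 421 to 494 against 13.2 to 18.3 RPM. T cell genes summed to 59.7 to 156 RPM in Rnaset2-/- against 0.537 to 1.17 RPM in wild-type libraries, B cell genes to 65.2 to 211 against 17.98 to 19.9 RPM, NK cell genes to 122 to 262 against 7.42 to 10.6 RPM and erythroid genes to 55.6 to 256 against 0.463 to 3.92 RPM. The part of these lists in the differences of this subset was not tested.

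**Figure D3:**
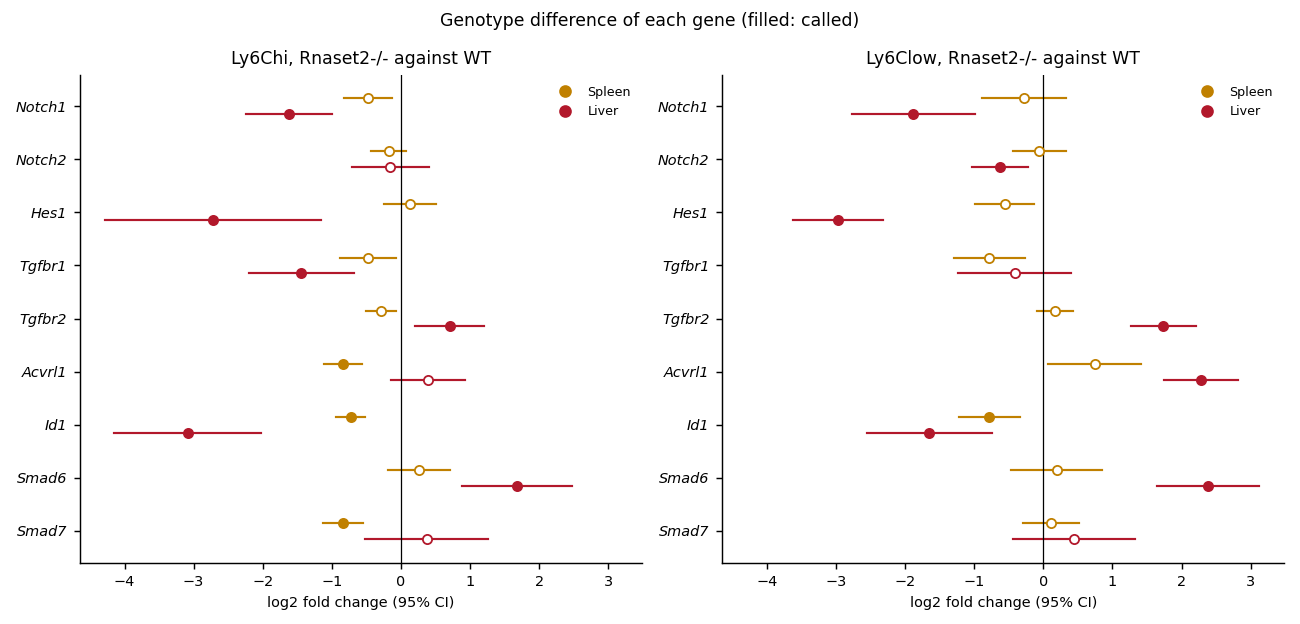
Log2 fold change, Rnaset2-/- against wild type, of the 9 genes in Ly6Chi (left) and Ly6Clow (right) macrophages of spleen and liver; points are estimates, lines 95% CI, and filled points genes called. In hepatic Ly6Clow macrophages Acvrl1, Tgfbr2 and Smad6 lay at 2.29, 1.73 and 2.38, and Hes1 and Notch1 at -2.97 and -1.88.

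In splenic Ly6Chi macrophages, 3 of 9 genes were lower in Rnaset2-/- mice and 0 higher, where 12.5% of all genes were called lower and 9.77% higher. The Rnaset2-/- libraries held 20404155 to 21167602 reads and the wild-type libraries 14280906 to 14415756. The wild-type libraries lay close together, as in their immediate early sums below, and whether they came from separate animals is not given. Their small spread enters the SEs. Acvrl1 (-0.84, SE 0.122, adjusted p = 0.000521), Smad7 (-0.84, SE 0.13, adjusted p = 0.000751) and Id1 (-0.73, SE 0.0957, adjusted p = 0.000277) fell. Notch1 (-0.48, adjusted p = 0.0368) and Tgfbr2 (-0.29, adjusted p = 0.0391) passed the p threshold but not the 1.5-fold threshold. Tgfbr1 (-0.48, 95% CI -0.88 to -0.07), Notch2 (-0.18, -0.43 to 0.07), Hes1 (0.13, -0.25 to 0.51) and Smad6 (0.26, -0.18 to 0.70) did not pass. In a fit of all 29 libraries together the log2 fold changes were -0.83 for Acvrl1, -0.83 for Smad7 and -0.73 for Id1, with adjusted p of 0.06, 0.0878 and 0.18, so that no gene was called; without scaling factors, which moved the median of all genes by -0.11 and calls in the higher direction from 44.0% to 31.2%, 5 were called lower. Granulocyte genes summed to 24246 to 44650 RPM in Rnaset2-/- and 21367 to 23742 RPM in wild-type libraries, and immediate early genes to 10823 to 14151 and 20137 to 20360 RPM. Genes of other cells were lower in every Rnaset2-/- library in sum: T cells (3.58 to 13.04 against 74.9 to 82.3 RPM), B cells (15.7 to 21.8 against 33.2 to 38.2 RPM), NK cells (73.1 to 190.5 against 324 to 335 RPM), erythroid cells (2.69 to 9.65 against 105 to 109 RPM), plasmacytoid dendritic cells (5.67 to 9.26 against 45.4 to 48.4 RPM) and conventional dendritic cells (12.4 to 17.01 against 92.3 to 97.1 RPM). The part of these lists in the result was not tested.

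Of 27 other Notch pathway genes in splenic Ly6Chi macrophages, 1 rose and 6 fell (median -0.08 against 0.01 over all genes), and of 30 TGF-beta pathway genes 3 rose and 8 fell (median -0.09). Nrarp fell from 8.12 to 3.48 RPM (-0.93, SE 0.185) and Maml3, a coactivator of Notch, from 15.9 to 9.15 RPM (-0.64, SE 0.175), while Dtx4, a ubiquitin ligase acting on Notch, rose from 10.8 to 20.5 RPM (0.93, SE 0.209). Gdf15 fell from 9.07 to 3.39 RPM (-1.10, SE 0.162) and Smad3, the TGF-beta effector, from 62.8 to 33.6 RPM (-0.77, SE 0.116), while Inhba, an activin subunit, rose from 23.1 to 41.4 RPM (0.85, SE 0.248). The calls of Maml3 and Inhba were lost without Rnaset2-/- replicate 2 or 3 (-0.57 and -0.54 for Maml3, 0.64 and 0.71 for Inhba), and also without wild-type replicate 1 for Maml3 (-0.53) and any wild-type replicate for Inhba (0.84 to 0.87).

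In splenic Ly6Clow macrophages, 1 of 9 genes was called lower and 0 higher, where 4.3% of all genes were called lower and 4.05% higher. Id1 was lower (-0.78, SE 0.192, adjusted p = 0.0415), a call lost without any of 6 of the 7 libraries, the exception being Rnaset2-/- replicate 1 (-0.69 to -0.84). Tgfbr1 (-0.78, 95% CI -1.30 to -0.26), Hes1 (-0.56, -0.98 to -0.13) and Acvrl1 (0.74, 0.07 to 1.42) had adjusted p of 0.065, 0.0912 and 0.135. Notch1, Notch2, Tgfbr2, Smad6 and Smad7 lay between -0.28 and 0.19. The Rnaset2-/- libraries differed in granulocyte genes, at 26434, 14914, 2769 and 1948 RPM, and Acvrl1 had the same order, at 24.4, 15.3, 9.65 and 8.95 RPM. They also spread in erythroid genes, from 56.0 to 955 RPM, and in KC genes, from 95.7 to 463 RPM. The part of any of these lists in Acvrl1 was not tested. The endothelial sum was 1463 to 2203 RPM against 271 to 326 RPM in the wild type, from 2 of its 12 genes, and the defining endothelial genes Clec4g and Stab2 were at most 0.568 RPM in these libraries.

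Of 27 other Notch pathway genes in splenic Ly6Clow macrophages, 2 rose and 1 fell, and of 30 TGF-beta pathway genes 2 rose and 4 fell (medians -0.08 and -0.06 against 0.01 over all genes). Nrarp fell from 79.7 to 16.1 RPM (-2.71, SE 0.716), and Dtx4 rose from 5.60 to 14.4 RPM (1.203, SE 0.274) and Psen2 from 53.1 to 118 RPM (1.06, SE 0.237). Tgif1, a repressor of SMAD targets, fell from 241 to 135 RPM (-0.83, SE 0.149), as did Smad3 from 113 to 65.0 RPM (-0.79, SE 0.139). All 5 of these genes lost their calls without wild-type replicate 2 or without wild-type replicate 3, in the same direction, and Nrarp was -2.07 without Rnaset2-/- replicate 1. The call of Nrarp (adjusted p = 0.0493 in limma) was lost in 7 of 14 alternatives. Among these were edgeR on recovered reads, a pseudocount of 0.1 and no filter on low values.

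Whether the genotype difference was the same in the liver as in the spleen was tested with the interaction of organ and genotype, given as the liver difference minus the splenic difference, at an adjusted p below 0.05. In Ly6Clow macrophages 3 of 9 genes differed upward and 2 downward, where 12.3% and 14.8% of all genes did. These were Smad6 (2.20, SE 0.443, adjusted p = 0.00303), Tgfbr2 (1.58, SE 0.23, adjusted p = 0.000354), Acvrl1 (1.55, SE 0.4, adjusted p = 0.0119), Hes1 (-2.40, SE 0.356, adjusted p = 0.000389) and Notch1 (-1.60, SE 0.504, adjusted p = 0.0321). Notch1 lost its call without wild-type splenic replicate 1 or 3, wild-type hepatic replicate 2 or 3, or Rnaset2-/- hepatic replicate 2 (-1.26 to -1.56). Id1 (-0.86, 95% CI -1.86 to 0.14), Notch2 (-0.56, -1.07 to -0.05), Tgfbr1 (0.38, -0.59 to 1.34) and Smad7 (0.35, -0.61 to 1.30) did not pass.

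In Ly6Chi macrophages 4 of 9 genes differed upward and 3 downward, where 17.9% and 16.4% of all genes did. Smad6 (1.47, SE 0.403), Acvrl1 (1.26, SE 0.257), Smad7 (1.24, SE 0.439) and Tgfbr2 (1.03, SE 0.232) differed upward, and Hes1 (-2.81, SE 0.778), Id1 (-2.33, SE 0.513) and Notch1 (-1.11, SE 0.325) downward, with adjusted p from 0.00281 to 0.0448. Hes1 was -1.93 without Rnaset2-/- hepatic replicate 1. Smad7, at the upper end of that range, lost its call without any of 10 of the 12 libraries, the exceptions being wild-type hepatic replicate 3 and Rnaset2-/- hepatic replicate 1 (0.90 to 1.33). Tgfbr1 (-0.94, 95% CI -1.82 to -0.06) and Notch2 (0.06, -0.52 to 0.64) did not pass. Without scaling factors the median of all genes moved by 0.36, calls upward went from 52.2% to 78.5% of all calls, and Notch1 was -0.73 (adjusted p = 0.0971). The tests in both subsets carry the sex difference of the hepatic libraries.

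KCs were then compared with the hepatic macrophages of wild-type mice. Xist and Ddx3y of the KC libraries are not reported here, and a sex difference between KCs and these groups was not tested. Against Ly6Chi macrophages, 3 of 9 genes were higher in KCs and 5 lower, where 29.3% and 25.3% of all genes were called. The inhibitors Smad6 (2.31, SE 0.268, adjusted p = 2.17e-05) and Smad7 (1.21, SE 0.253, adjusted p = 0.00162) and the receptor Tgfbr2 (0.82, SE 0.158, adjusted p = 0.000958) were higher. Notch2 (-1.93, SE 0.163, adjusted p = 1.66e-06), Id1 (-1.85, SE 0.213, adjusted p = 2e-05), Hes1 (-1.44, SE 0.221, adjusted p = 0.000191) and Tgfbr1 (-1.24, SE 0.215, adjusted p = 0.000458) were lower. Notch1 was lower after scaling (-0.65, SE 0.258, adjusted p = 0.0472) and 0.02 without scaling, and lost its call without KC replicate 1, 2 or 4 or Ly6Chi replicate 1 or 3 (-0.42 to -0.73). Acvrl1 (0.57, 95% CI -0.07 to 1.21) did not pass. Scaling mattered in this comparison, since the median of all genes was 0.62 higher without it and calls in the higher direction went from 53.7% to 82.2%; Tgfbr1 then fell below 1.5-fold (-0.57) and Acvrl1 was called higher.

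Against wild-type Ly6Clow macrophages, 3 of 9 genes were higher in KCs and 4 lower, where 26% and 24% of all genes were called. Smad6 (2.01, SE 0.237, adjusted p = 5.23e-05), Acvrl1 (0.93, SE 0.299, adjusted p = 0.0231) and Smad7 (0.71, SE 0.231, adjusted p = 0.0247) were higher. Hes1 (-2.50, SE 0.189, adjusted p = 2.88e-06), Tgfbr1 (-1.92, SE 0.187, adjusted p = 1.5e-05), Notch2 (-1.80, SE 0.159, adjusted p = 7.94e-06) and Id1 (-0.98, SE 0.294, adjusted p = 0.0165) were lower. Notch1 (0.52, 95% CI -0.15 to 1.19) and Tgfbr2 (0.22, -0.10 to 0.53) did not pass. Acvrl1 lost its call without KC replicate 1 or 2 or any Ly6Clow replicate (0.76 to 0.95), Smad7 without KC replicate 3 or Ly6Clow replicate 1 or 3 (0.46 to 0.70), and Id1 without Ly6Clow replicate 2 or 3 (-0.72 and -0.86; -0.20 without both), so that 4 genes were called without Ly6Clow replicate 3. Without scaling factors the median of all genes moved by 0.53, calls in the higher direction went from 52.0% to 79.8%, and 8 genes were called, 5 higher and 3 lower: Id1 lost its call (-0.40, adjusted p = 0.243) and Notch1 and Tgfbr2 gained one.

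Of 34 Notch pathway genes, 10 were higher and 9 lower in KCs than in Ly6Chi macrophages, and of 41 TGF-beta pathway genes 17 were higher and 10 lower (medians 0.05 and -0.03 against 0.05 over all genes). Against Ly6Clow macrophages, 11 of 33 Notch pathway genes were higher and 11 lower, and 10 of 41 TGF-beta pathway genes were higher and 11 lower (medians 0.23 and -0.14 against 0.02). KCs held on average 354 RPM of Bmp2, 71.2 RPM of Bmp6, 55.4 RPM of Dll4, 41.2 RPM of Notch4 and 7.89 RPM of Dtx1, a Notch-binding ubiquitin ligase. Ly6Chi macrophages held 6.67, 1.31, 1.17, 0.534 and 0.0257 RPM of these, and Ly6Clow macrophages 22.2, 3.86, 5.54, 1.91 and 0.305 RPM. Gdf15 was lower in KCs, at 13.5 RPM against 164 RPM in Ly6Chi and 141 RPM in Ly6Clow macrophages. All 12 endothelial genes were higher in every KC library than in every library of either subset. The same held for all 7 stellate cell, 6 hepatocyte, 3 T cell and 3 B cell genes. In KCs, T cell genes summed to 72.2 to 142 RPM and B cell genes to 249 to 350 RPM. Erythroid genes summed to 54.3 to 224 RPM there. The subsets held at most 1.17, 29.2 and 5.84 RPM of these lists. Of 8 granulocyte genes, 7 were lower in every KC library than in Ly6Chi macrophages. The part of these lists in the KC comparisons was not tested.

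To place the Rnaset2-/- hepatic Ly6Clow macrophages in relation to resident cells, they were compared with wild-type KCs. A sex difference between these groups was not tested either. The summed KC marker genes overlapped, at 6555 to 11396 RPM in the former and 6868 to 19647 RPM in the latter, and 5 of 8 were lower in every Rnaset2-/- library, among them the defining gene Clec4f, at 63.3, 17.7 and 53.1 RPM against 1674 to 5471 RPM. In this comparison 4 of 9 genes were higher in Rnaset2-/- Ly6Clow macrophages and 1 lower, where 19.4% and 26.3% of all genes were called. The receptors Tgfbr2 (1.498, SE 0.207, adjusted p = 0.000534), Tgfbr1 (1.49, SE 0.347, adjusted p = 0.00692), Acvrl1 (1.35, SE 0.336, adjusted p = 0.00962) and Notch2 (1.15, SE 0.172, adjusted p = 0.000793) were higher, and Notch1 (-2.46, SE 0.318, adjusted p = 0.000383) was lower. The inhibitors Smad6 (0.40, 95% CI -0.22 to 1.02) and Smad7 (-0.28, -1.04 to 0.48) and the targets Hes1 (-0.50, -1.02 to 0.02) and Id1 (-0.70, -1.34 to -0.06) did not pass. Without scaling factors the median of all genes moved by -0.48 and calls in the higher direction went from 42.5% to 15.9%; Acvrl1 was then 0.82 (adjusted p = 0.0699), Hes1 and Id1 were called lower, and in all 3 genes were called higher and 3 lower.

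Of 33 Notch pathway genes, 8 were higher and 9 lower in Rnaset2-/- Ly6Clow macrophages than in KCs, and of 41 TGF-beta pathway genes 8 were higher and 18 lower (medians 0.07 and -0.54 against -0.08 over all genes). Psen2 was higher, at 500.0 against 109 RPM (2.72, SE 0.238). Bmp2 was 27.3 against 354 RPM (-3.51, SE 0.637), Dll1, a Notch ligand, 0.434 against 10.7 RPM (-2.73, SE 0.446) and Ldlrad4 1.90 against 21.3 RPM (-2.57, SE 0.31); without Rnaset2-/- replicate 1 or 3 Bmp2 was -2.84 or -4.37. Gdf2, which encodes BMP9, and Heyl, a Notch target, were listed at 0 in the Rnaset2-/- libraries and averaged 9.18 and 8.90 RPM in KCs. The endothelial sum was 1159 to 4562 RPM in the Rnaset2-/- libraries and 3661 to 9059 RPM in KCs. In every Rnaset2-/- Ly6Clow library, 11 of 12 endothelial genes, all 6 hepatocyte genes and all 7 stellate cell genes were lower. The stellate cell sum was 3.58 to 8.08 RPM against 203 to 523 RPM in KCs. The part of these lists in this comparison was not tested.

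**Figure D4:**
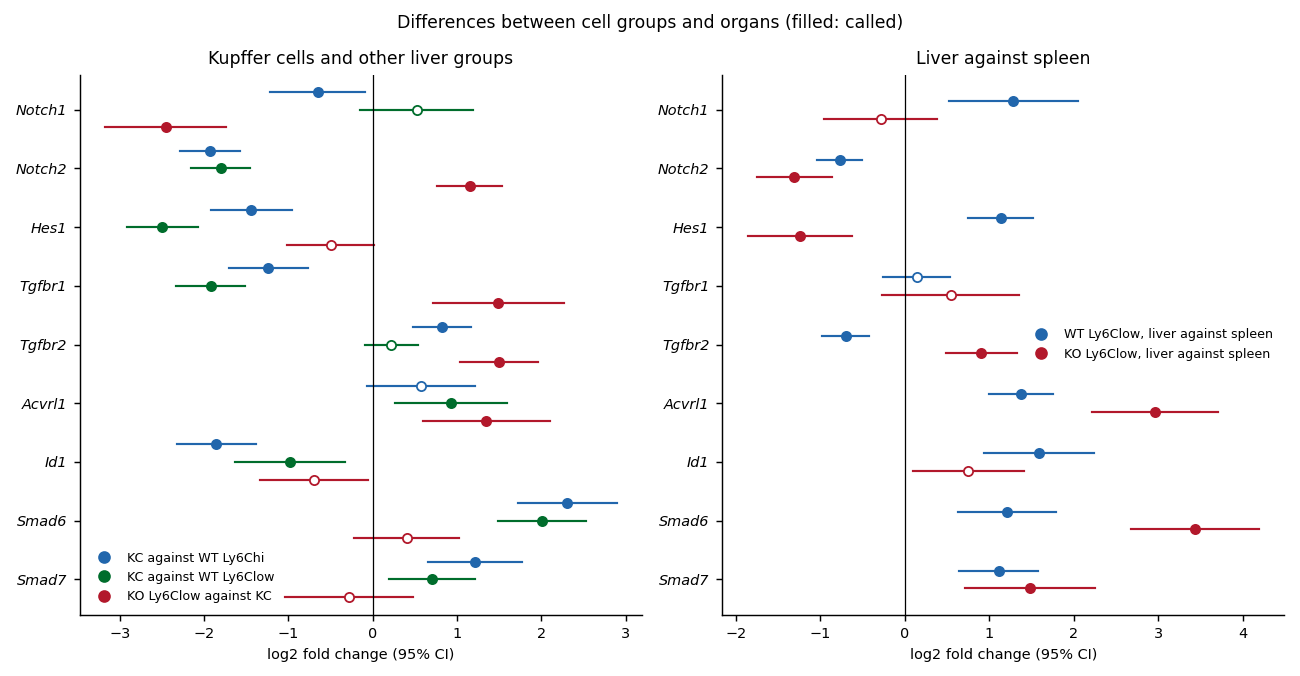
Log2 fold change with 95% CI of the 9 genes between KCs and other hepatic groups (left) and between liver and spleen in Ly6Clow macrophages (right); filled points are genes called. Smad6 lay at 2.31 and 2.01 in KCs against the wild-type subsets, at 0.40 in Rnaset2-/- Ly6Clow macrophages against KCs, and at 1.21 and 3.43 in liver against spleen in wild-type and Rnaset2-/- mice.

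Liver and spleen were compared within Ly6Clow macrophages of each genotype. In wild-type mice 6 of 9 genes were higher in the liver and 2 lower, where 18.8% and 15.3% of all genes were called. Id1 (1.59, SE 0.294), Acvrl1 (1.38, SE 0.171), Notch1 (1.29, SE 0.34), Smad6 (1.21, SE 0.261), Hes1 (1.14, SE 0.172) and Smad7 (1.11, SE 0.21) were higher, and Notch2 (-0.77, SE 0.12) and Tgfbr2 (-0.70, SE 0.126) lower, with adjusted p from 0.000228 to 0.0125. Tgfbr1 (0.14, 95% CI -0.26 to 0.54) did not pass. Notch1 lost its call without splenic replicate 1 or hepatic replicate 3 (1.02 and 1.19), and without hepatic replicates 2 and 3 together 5 genes were called: Notch1 (0.58) and Smad7 (0.70, adjusted p = 0.0529) were lost, Smad6 no longer passed the filter on low values, and Id1 was called at 0.79. In these libraries immediate early genes summed to 30257 to 43283 RPM in the liver and 18354 to 24340 RPM in the spleen, granulocyte genes to 6.29 to 8.86 and 614 to 1467 RPM and NK cell genes to 1.34 to 3.22 and 51.6 to 81.9 RPM, and 11 of 12 endothelial genes were higher in every liver library. The part of these lists in the result was not tested.

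In Rnaset2-/- mice 4 of 9 genes were higher in the liver and 2 lower, where 18.5% and 17.6% of all genes were called. In Xist and Ddx3y, only splenic replicate 2 was like the liver libraries. Organ and sex therefore largely cannot be told apart in this comparison. Smad6 (3.43, SE 0.332), Acvrl1 (2.96, SE 0.326), Smad7 (1.48, SE 0.338) and Tgfbr2 (0.90, SE 0.184) were higher, and Notch2 (-1.31, SE 0.196) and Hes1 (-1.24, SE 0.271) lower, with adjusted p from 0.000255 to 0.00978. Id1 (0.75, 95% CI 0.09 to 1.41), Tgfbr1 (0.54, -0.27 to 1.35) and Notch1 (-0.29, -0.95 to 0.38) did not pass. Hes1 and Tgfbr2 thus lay on opposite sides of the spleen in the 2 genotypes, a difference that is the interaction given above. Immediate early genes summed to 1934 to 2871 RPM in the liver and 17981 to 25591 RPM in the spleen, granulocyte genes to 6.05 to 20.3 and 1948 to 26434 RPM, KC genes to 6555 to 11396 and 95.7 to 463 RPM and T cell genes to 20.2 to 54.9 and 1.42 to 4.26 RPM, and 11 of 12 endothelial genes were higher in every liver library; the part of these lists was not tested.

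Among 28 other Notch pathway genes tested between liver and spleen, 1 was higher and 8 lower in wild-type and 7 higher and 5 lower in Rnaset2-/- Ly6Clow macrophages (medians -0.18 and -0.13). Of the TGF-beta pathway genes, 14 of 33 were higher and 3 lower in the wild type and 11 of 31 higher and 5 lower in Rnaset2-/- mice (medians 0.44 and 0.49, against -0.02 and -0.0015 over all genes). Id3, a relative of Id1, was 492 RPM in wild-type liver and 37.6 RPM in wild-type spleen (3.69, SE 0.237), and 386 and 44.0 RPM in Rnaset2-/- mice (3.09, SE 0.356). In wild-type mice Bmp2 was 22.2 against 1.35 RPM (3.08, SE 0.484) and Dll4 was 5.54 against 0.346 RPM (2.12, SE 0.447), and Numbl, a Notch inhibitor, was lower in the liver (-1.28, SE 0.287). In Rnaset2-/- mice Eng was 197 against 7.52 RPM (4.29, SE 0.517), Dll4 17.3 against 0.408 RPM (2.99, SE 0.728) and Hey1, a Notch target, 7.24 against 0.407 RPM (2.33, SE 0.489), and Jag1 (-3.40, SE 0.489) and Gdf15 (-3.58, SE 0.542) were lower in the liver.

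The last comparison was between the subsets of the wild-type spleen. Of 8 genes tested, 4 were higher in Ly6Clow macrophages and 4 lower, where 13.8% and 19.8% of all genes were called. The Ly6Chi libraries lay close together and are not known to come from separate animals, so SEs here measure the spread between libraries only. Hes1 (2.12, SE 0.0985, adjusted p = 9.26e-08), Tgfbr1 (1.83, SE 0.183, adjusted p = 1.69e-05), Tgfbr2 (0.97, SE 0.0995, adjusted p = 2.14e-05) and Notch2 (0.59, SE 0.0742, adjusted p = 9.33e-05) were higher. Id1 (-1.74, SE 0.111, adjusted p = 6.79e-07), Acvrl1 (-1.61, SE 0.14, adjusted p = 6.33e-06), Smad7 (-0.76, SE 0.121, adjusted p = 0.000463) and Notch1 (-0.75, SE 0.239, adjusted p = 0.0233) were lower. Notch1 lost its call without any Ly6Chi replicate or without Ly6Clow replicate 1 or 3 (-0.50 to -0.80), and Notch2 fell below 1.5-fold without Ly6Chi replicate 3 (0.54). Without scaling factors the median of all genes moved by -0.14 and calls in the higher direction went from 41.1% to 29.8%; Notch2 then fell below 1.5-fold (0.44). The defining endothelial genes Clec4g and Stab2 were at most 1.32 RPM in these libraries. Granulocyte genes summed to 614 to 1467 RPM in Ly6Clow and 21367 to 23742 RPM in Ly6Chi libraries, T cell genes to 2.25 to 5.21 and 74.9 to 82.3 RPM, NK cell genes to 51.6 to 81.9 and 324 to 335 RPM, plasmacytoid dendritic cell genes to 4.96 to 10.8 and 45.4 to 48.4 RPM and conventional dendritic cell genes to 29.7 to 40.97 and 92.3 to 97.1 RPM; the part of these lists in the result was not tested.

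In the same comparison 6 of 28 Notch pathway genes were higher and 2 lower, and 7 of 32 TGF-beta pathway genes were higher and 7 lower (medians 0.22 and -0.08 against 0.01 over all genes). Nrarp was 79.7 RPM in Ly6Clow and 8.12 RPM in Ly6Chi macrophages (3.28, SE 0.132), Jag1 76.3 and 17.5 RPM (2.20, SE 0.131) and Lfng, which glycosylates Notch receptors, 443 and 262 RPM (0.90, SE 0.0773). Tgfbr3, a TGF-beta co-receptor, was 234 and 15.9 RPM (3.94, SE 0.0991), whereas Inhba (-3.08, SE 0.223) and Tgfbi (-2.10, SE 0.0787), a TGF-beta target, were lower.

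Across the 29 libraries the members varied together in part. Over log2 scaled RPM, Pearson's r was 0.83 between Smad6 and Smad7, 0.81 between Acvrl1 and Smad6, 0.77 between Hes1 and Tgfbr1 and -0.76 between Notch2 and Smad6; libraries of 1 group share organ, gate and genotype, so these values describe the groups as much as the libraries. Among 10688 genes, those most like each member over the 29 libraries were Baiap2, Ntan1 and H1f0 for Notch1 (r from 0.88 to 0.90), Cyp4f16, Tmem38b and Il17ra for Notch2 (0.95 to 0.96), Tmed5 and Taok1 for Hes1 (0.89 to 0.90), Nr1d2, Rnf2 and Gm5086 for Tgfbr1 (0.85 to 0.92), and Adamdec1, Grap2 and Rims3 for Tgfbr2 (0.89 to 0.92). For Acvrl1 they were Car13, Batf3 and Aif1 (0.93 to 0.94), for Id1 Rnd3, Cebpa and Ahr (0.85 to 0.91), for Smad6 Asb4, Sparc and Lepr (0.93), and for Smad7 Ehd3, Ajuba and Myo6 (0.89 to 0.91).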

How the data were processed

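Sorted splenic and hepatic macrophages were measured in 29 libraries, grouped by organ, subset and genotype as labelled. The authors made amplicon libraries with an Ion AmpliSeq panel for the mouse transcriptome, read them on an Ion Proton and used the AmpliSeqRNA plug-in for counting; the labels give mm10. The authors deposited 1 table of RPM for 23930 genes. The size of 1 read could be found in every column, and all values were whole multiples of it (tolerance 0.1 reads), so depth was known: 11175843 to 21167602 reads per library.

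Relative log expression factors, taken over the compared libraries, scaled the RPM; a gene was tested if 3 or more of these libraries reached 1 RPM, on log2(value + 1) with limma 3.58.1 in R 4.3.3 (lmFit, and eBayes with trend; two-sided; Benjamini-Hochberg over all tested genes). A fold change on this scale understates low genes. Calls needed over 1.5-fold and an adjusted p below 0.05 (interaction: adjusted p alone). Levels are unscaled RPM. Alternatives were a pseudocount of 0.1, no filter, no scaling factors, a single fit of 29 libraries, a replicate block, edgeR 4.0.16 (908 to 6532 genes called over all comparisons, against 860 to 6846 with limma) and DESeq2 1.42.0 on recovered reads, omission of each library and, added after the data were seen, omission of wild-type liver replicates 2 and 3. Scripts were tested on simulated data. All members are named, with at most 3 called genes of each pathway list (largest change, mean of at least 5 RPM in 1 group) and the 3 genes most correlated with each member among genes reaching 5 RPM in 3 or more libraries; some genes that this rule names are not reported here. Members and lists were chosen with earlier results of these data known.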

Additional observations from a re-analysis of the deposited data

Results flagged for a closer look

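Notch1 stood at 80.3 RPM in KC replicate 3, farther from the other KC libraries (43.9 to 49.9 RPM) than the spread of 4 libraries allows at the 95% level; 18 sets of 4 libraries were examined, of which chance marks about 1 in 20. The same library held the least Clec4f and the most Clec4g, at 1674 and 2662 RPM against 4819 to 5471 and 877 to 1232 RPM in the others.

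The genotype difference was not the same in liver and spleen for 5 genes in Ly6Clow and 7 genes in Ly6Chi macrophages (limma, adjusted p below 0.05, liver difference minus splenic difference on the log2 scale). In Ly6Clow macrophages the values were -1.60 for Notch1, -2.40 for Hes1, 1.58 for Tgfbr2, 1.55 for Acvrl1 and 2.20 for Smad6. In Ly6Chi macrophages they were -1.11 for Notch1, -2.81 for Hes1, 1.03 for Tgfbr2, 1.26 for Acvrl1, 1.47 for Smad6, 1.24 for Smad7 and -2.33 for Id1.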

How the results depend on the processing

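The 71 calls of members were recomputed 1074 times, of which 974 kept the call, 99 lost it in the same direction and 1 reversed: Notch1 in KCs against Ly6Chi macrophages, 0.020 without scaling factors. Counts of members called moved by over 1.5 times as follows. A fit of all 29 libraries called 0 in splenic Ly6Chi (Acvrl1 -0.83, Smad7 -0.83, Id1 -0.73) and 0 in splenic Ly6Clow macrophages (Id1 -0.79) by genotype, and 5 between wild-type splenic subsets (lost: Notch1 -0.76, Notch2 0.58, Smad7 -0.77). Without scaling factors splenic Ly6Chi macrophages gave 5. In splenic Ly6Clow macrophages the count was 0 without the filter, 0 with the replicate block and 2 with DESeq2. There DESeq2 called 1600 of all genes, against 860 with limma and 908 with edgeR. In every comparison edgeR on recovered reads called as many members as limma. Without wild-type liver replicates 2 and 3, chosen after seeing the data, it was 0 in hepatic Ly6Chi and 4 in hepatic Ly6Clow macrophages by genotype, 5 in wild-type liver against spleen and 3 for the Ly6Clow interaction (lost: Notch1 -0.87, Acvrl1 1.70). The cause of these changes was not tested; the last setting leaves 1 wild-type liver library per subset, assumed to vary like the others. With each library left out in turn the counts were 0 to 1 in splenic Ly6Clow, 3 to 6 in hepatic Ly6Chi and 4 to 7 in KCs against Ly6Clow macrophages. Whether replicate numbers pair the samples was not settled. No comparison had all pairs correlated above 0.1, and in none did every sample correlate best with its own number. In KCs against wild-type Ly6Chi macrophages 5 of 6 libraries did so. Wild-type hepatic Ly6Chi and Ly6Clow libraries, where replicates 2 and 3 of both held Ddx3y, were not set against each other here. The replicate block also ended the calls of Id1 in splenic Ly6Clow macrophages (-0.69) and of Notch1 in KCs against Ly6Chi macrophages (-0.57) and in the Ly6Clow interaction (-1.58). Depth limits Smad6 in the spleen, where it lay within 1.92 RPM.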
